A study of Mus musculus with 6 samples.

Results

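Spasmolytic polypeptide-expressing metaplasia (SPEM) is a lineage that appears in the acid-secreting stomach after injury, and its cells carry products of mucous neck cells. The 10 genes described here, Tff2, Muc6, Gkn3, Cd44, Cftr, Aqp5, Wfdc2, Dmbt1, Olfm4 and Glipr1, are markers of SPEM or of neck cells. They were chosen by name, and all 10 were found among 21887 protein-coding genes of the RefSeq table for the mouse build GRCm38 (mm10). For each gene, every deposited peak summit inside the gene or within 50 kb of its start or end was taken from each of 6 libraries of a chromatin immunoprecipitation study of mouse gastric corpus epithelium. A summit is the single base at which the peak caller placed the centre of a peak.

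The normal mice were wild type, and the tumor mice had the genotype CluCreERT2;R26rtTA;HA-Yap+, which reads as a tamoxifen-inducible Cre driven from Clu, a reverse tetracycline transactivator at Rosa26 and an HA-tagged Yap. The labels give one regimen for all samples, 2 mg tamoxifen on 5 successive days and then doxycycline food for 14 days, so it is listed for the wild-type mice too. A Cre driven from Clu acts in Clu-expressing cells, while the libraries were made from all epithelial cells that EDTA released, with no culture step before fixation, and ages and the number of animals are not given. H3K27ac, an acetylation of histone H3 found at active regulatory DNA, was profiled in 1 normal and 1 tumor library, and YAP in 2 libraries labelled normal and 2 labelled tumor. In such mixtures a smaller number of cells with a mark and less of the mark per cell cannot be told apart.

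YAP is a transcriptional coactivator that the Hippo kinases keep out of the nucleus, and it reaches DNA mainly through TEAD factors. Neck cells make the gland mucin MUC6 and the trefoil peptide TFF2, and SPEM cells add surface proteins and channels such as CD44v, CFTR and AQP5 as parietal and chief cells are lost. Whether YAP sits at the genes of this lineage is a question that the study's title raises, since it names a YAP-activated metaplasia.

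The lists differ in length and the depth behind them is unknown. YAP summits on the main chromosomes numbered 1654 and 2141 in normal 1 and normal 2, and 38268 and 53904 in tumor 1 and tumor 2. H3K27ac summits numbered 22574 in the normal and 66896 in the tumor library. The words inside the peak names go against 2 labels: the library labelled YAP normal 2 carries the word of the tumor H3K27ac library (Clu_Yap), and the library labelled YAP tumor 1 carries the word of the normal one (cre). Each library is called by its label below, and values without these 2 libraries are given. Checked on epithelial genes, the normal and tumor H3K27ac libraries had a summit in or within 1 kb of 7 and 8 of 8 (18 summits each). For parietal cell genes this was 4 and 4 of 4 (8 and 13 summits). For leukocyte genes it was 2 and 3 of 7 (3 and 6 summits), with none at Cd3e, Lyz2 or Cd68 in either library. For fibroblast and muscle genes it was 4 and 6 of 7 (5 and 19 summits), and for endothelial genes 1 and 4 of 4 (3 and 12 summits). Leukocyte, fibroblast and endothelial genes thus carried more summits in the longer tumor list. With that list shortened to the normal length they carried 2, 2 and 4 summits, parietal cell genes 5 and epithelial genes 11. A summit was then at 1 of 7 leukocyte, 2 of 7 fibroblast and muscle and 3 of 4 endothelial genes. It was at 2 of 4 parietal cell and 7 of 8 epithelial genes. The part of leukocytes, fibroblasts and endothelial cells in the results below was not tested.

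All 10 marker genes had YAP summits in both tumor libraries, and 9 of 10 had none in either normal library. Tumor 1 placed 47 summits in the 10 windows and tumor 2 placed 81, against 0 in normal 1 and 2 in normal 2. Per 10000 summits of each list this was 12.3 and 15.0 in tumor 1 and tumor 2, and 0 and 9.34 in normal 1 and normal 2. Muc6 was the gene with the 2 normal summits. In all 10 genes both tumor libraries had more summits than either normal library, and this held for 79.2% of all protein-coding genes. The windows of all genes held at least 1 summit for 82.4% of genes in tumor 1, 83.5% in tumor 2, 5.96% in normal 1 and 14.9% in normal 2. With 2 libraries against 2 the smallest two-sided p of an exact permutation test is 0.333, so no gene could be called by it. The labels do not tie the libraries to animals, and the spread within a group may be technical.

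**Figure D1:**
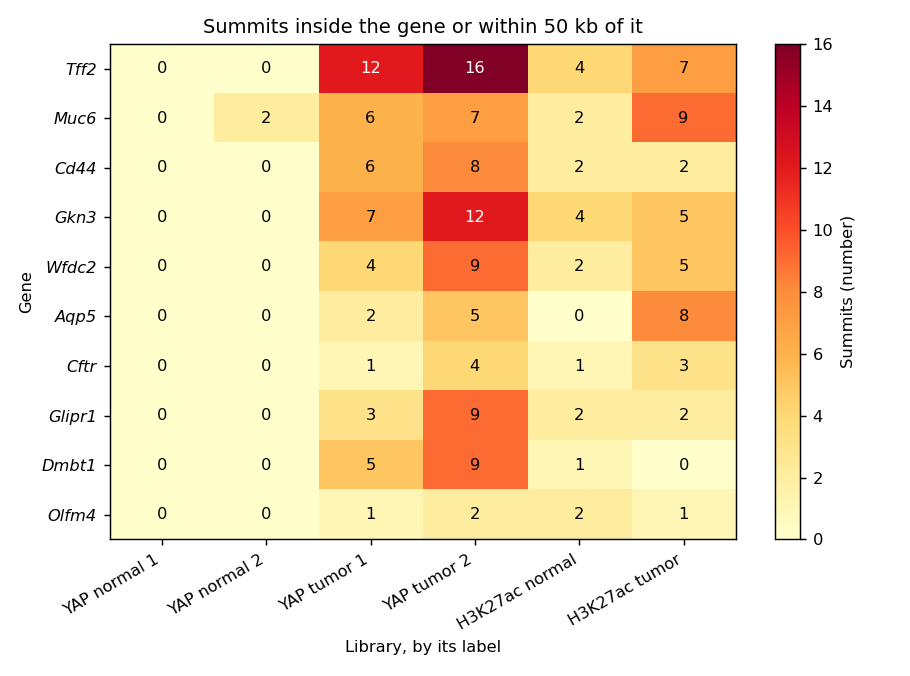
Number of summits inside each marker gene or within 50 kb of it (rows) in each of the 6 libraries (columns), printed in the cells and shown by colour. The tumor YAP columns range from 1 to 16, the normal YAP columns hold 0 except for 2 summits at Muc6, and Aqp5 has 0 H3K27ac summits in normal and 8 in tumor.

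Without both doubted libraries, tumor 2 alone was above normal 1 alone at 10 of 10 genes, against 82.8% of all genes. The 10 of 10 follows from the call on all YAP libraries above and could not have come out lower. With the peak-name words in place of the labels, 0 of 10 genes had more summits in both libraries with the tumor word, against 0.224% of all genes. For such a call normal 2, with 2141 summits in all, must outnumber tumor 1, with 38268, in the same window. The list lengths thus leave little room for it at any gene. With all YAP lists shortened to the 1654 best summits, 1 of 10 genes had more in both tumor libraries, against 9.83% of all genes. That gene was Glipr1, through summits beside a listed transcript start, inside its neighbour Krr1.

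A site of both tumor libraries was defined as a tumor 1 and a tumor 2 summit within 200 bp of each other, placed at their midpoint. There were 36 such sites in the windows, at 9 of 10 genes, while 79.2% of all genes have at least 1. Tff2 had 11 sites, Gkn3 6, Cd44 5, Dmbt1 4 and Glipr1 3, Muc6, Wfdc2 and Aqp5 had 2 each, Olfm4 had 1 and Cftr had 0. The median was 2.5 sites a gene, against 3.0 over all genes. Only 6 of the 36 sites lay inside the marker gene, in 5 of 10 genes, and 46.0% of all genes have a site inside. Counting summits inside the gene alone, 5 of 10 had more in both tumor libraries, against 45.5% of all genes. For 17 of the 36 the marker gene was the nearest protein-coding gene, and the other 19 lay nearer to a neighbour.

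**Figure D2:**
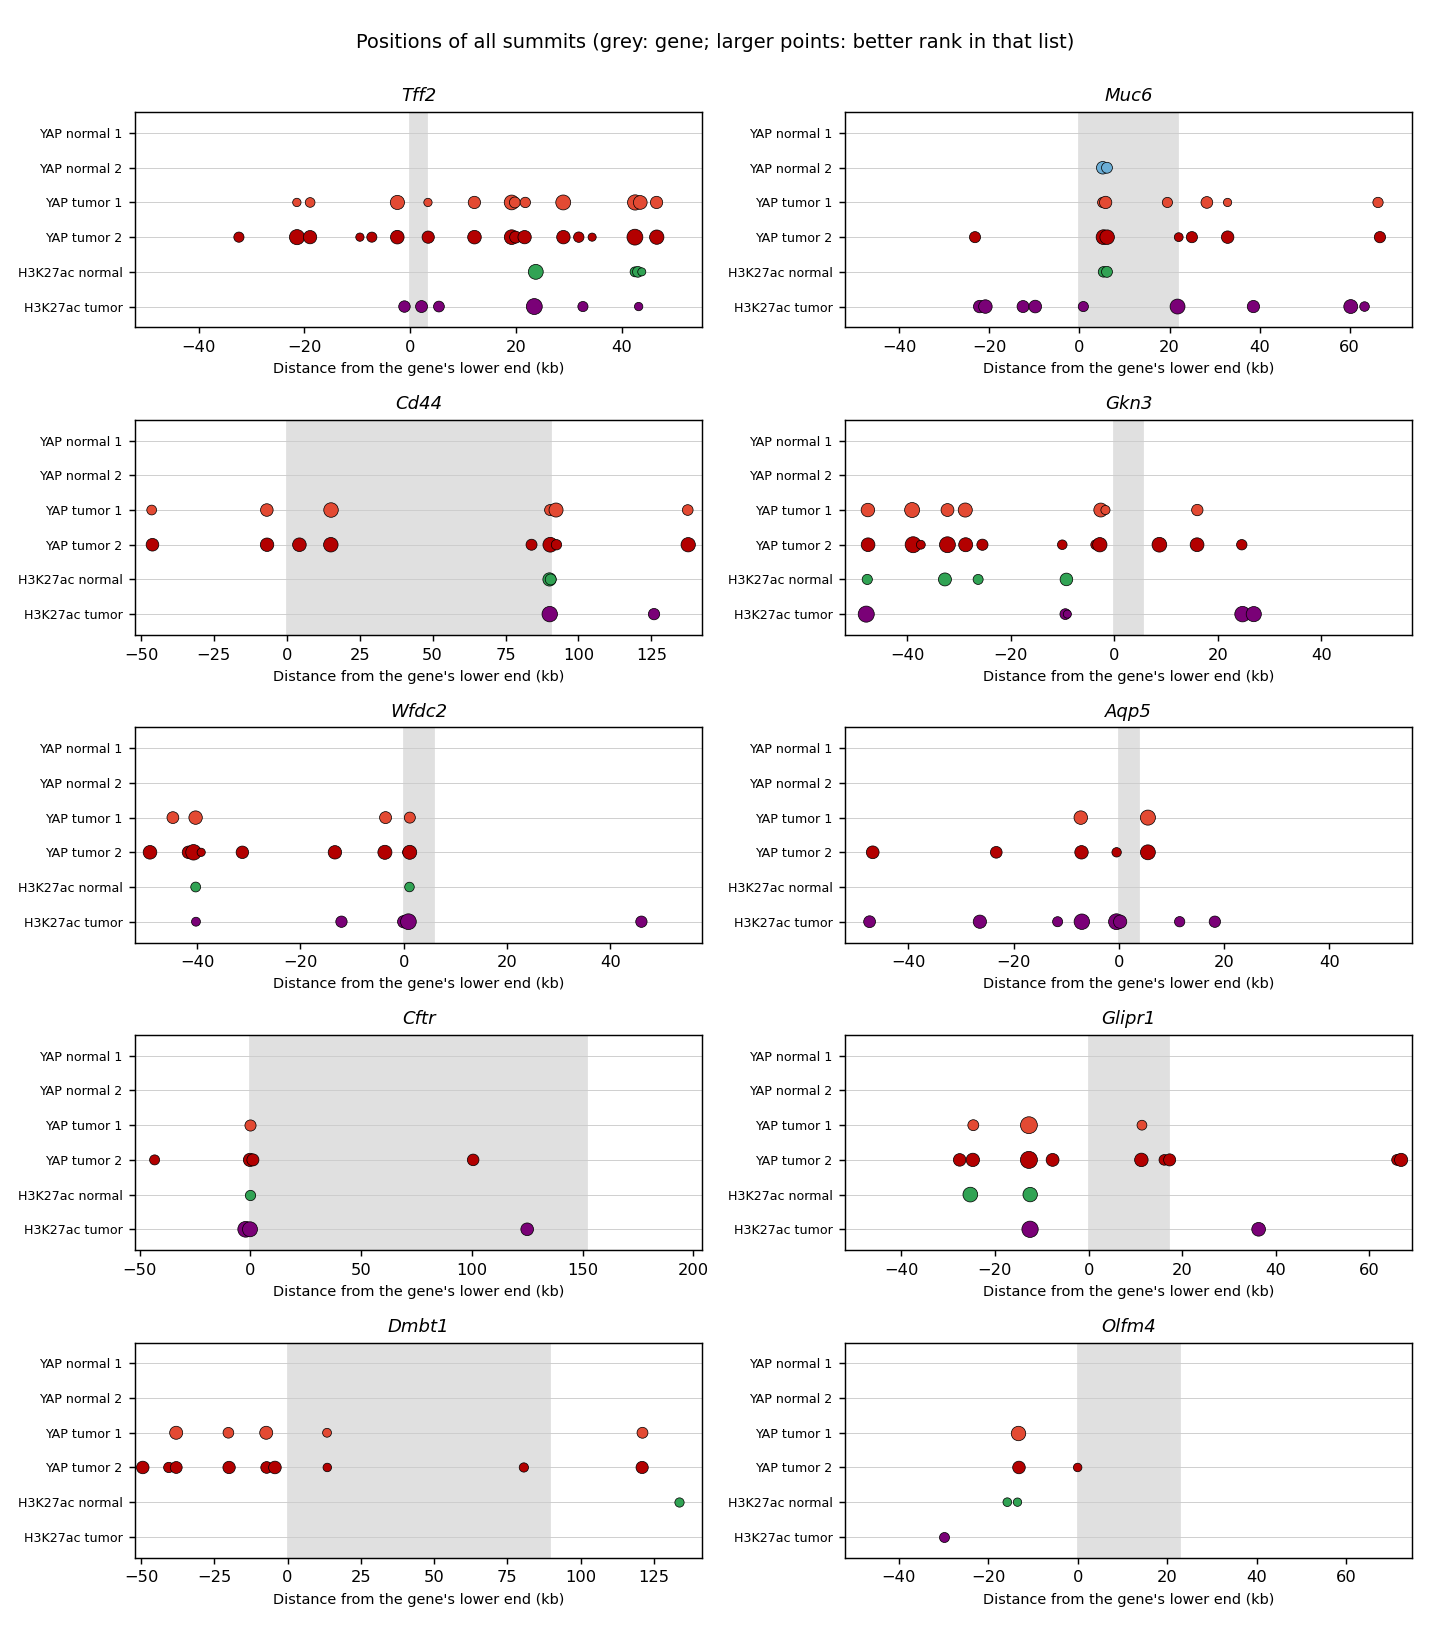
Positions of every summit in the windows of the 10 marker genes, as distance in kb from the gene's end with the lower coordinate, with 1 row of points per library. The grey band is the gene, and larger points have a better rank within their own list; the 2 normal YAP summits at Muc6 and the run of tumor YAP summits on both sides of Tff2 can be seen.

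Tff2 encodes the spasmolytic polypeptide itself, a trefoil peptide secreted with neck-cell mucus. The gene (chromosome 17, 31141062 to 31144282) stands between Tff3 and Tff1, whose own peptides belong to intestinal goblet cells and gastric pit cells. It had 12 and 16 YAP summits in tumor 1 and tumor 2 and 0 in both normal libraries. Its density of 10.7 sites of both tumor libraries per 100 kb was the highest of the 10 genes, and 0.662% of all genes have at least that density. That cutoff was the density of Tff2 itself, so the share is a description and no test. Most of these sites were not at Tff2. Tff2 was the nearest gene for 2 of the 11, Tff1 for 5, and Tmprss3, Tff3 and Abcg1 for the other 4. The 2 nearest to Tff2 lay 2446 bp outside one end, at position 31138616, and 143 bp outside the other, at 31144425. Both were placed in the middle or end of the lists: the first ranked 15492 of 38268 in tumor 1 and 25528 of 53904 in tumor 2, the second 37632 and 33799. The best-ranked site of the window was at 31183541, inside Tmprss3, a membrane serine protease gene, and ranked 10212 and 9812.

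H3K27ac at Tff2 differed between the libraries in where it lay. The tumor library had 3 summits for which Tff2 was the nearest gene, 1 inside the gene at 31143189 and the others 1099 and 2195 bp outside it, and the normal library had 0. All 3 ranked between 44124 and 51660 of 66896, so none was among the 22574 best of the tumor list. At Tff1, a pit cell gene, both libraries had a summit, 280 bp apart, ranked 7072 of 22574 in normal and 11697 of 66896 in tumor. In the whole window there were 4 normal and 7 tumor summits, and 1 tumor summit at equal list length.

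Muc6 encodes the gel-forming mucin of neck and gland cells and lies beside Ap2a2 and Muc2. It had 0 and 2 YAP summits in normal 1 and normal 2, and 6 and 7 in tumor 1 and tumor 2. The normal 2 summits lay 5180 and 6118 bp inside the gene from its 3′ end (chromosome 7, from position 141633459). The same stretch held summits of tumor 1 at 5178 and 5817 bp, of tumor 2 at 5354 and 6159 bp, and of the normal H3K27ac library at 5357 and 6120 bp. It was thus marked in 4 of the 6 libraries, YAP normal 1 and the tumor H3K27ac library being without one. Since normal 2 is one of the doubted libraries, no YAP summit at any of the 10 genes comes from a normal library whose peak names fit its label. The tumor H3K27ac library had 2 summits inside the gene, near its 2 ends. One lay 875 bp from the 3′ end, ranked 55627 of 66896, and 4482 bp from the nearest normal summit. The other lay 148 bp inside the gene next to the transcript start, ranked 20678, and the nearest normal summit was 15666 bp from it. Tumor 2 had a YAP summit 115 bp upstream of this start, ranked 50873 of 53904, and the nearest of tumor 1 was 2247 bp from the H3K27ac summit at the start.

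The 250 bases before the transcript start are shown for the 4 genes with a summit there, and for Aqp5, whose start lies between 2 H3K27ac summits of the tumor library. Capitals mark the summit base with 10 bases on each side, and all are 5′ to 3′ on the gene's strand, from RefSeq on GRCm38.p6.
Muc6, chr7:141655394-141655643, minus strand, YAP tumor 2: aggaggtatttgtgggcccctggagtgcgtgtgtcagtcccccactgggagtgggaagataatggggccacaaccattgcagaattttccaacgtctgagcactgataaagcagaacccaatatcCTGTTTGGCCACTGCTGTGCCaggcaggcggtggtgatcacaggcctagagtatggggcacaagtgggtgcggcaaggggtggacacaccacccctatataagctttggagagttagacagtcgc
Wfdc2, chr2:164562465-164562714, plus strand, H3K27ac tumor: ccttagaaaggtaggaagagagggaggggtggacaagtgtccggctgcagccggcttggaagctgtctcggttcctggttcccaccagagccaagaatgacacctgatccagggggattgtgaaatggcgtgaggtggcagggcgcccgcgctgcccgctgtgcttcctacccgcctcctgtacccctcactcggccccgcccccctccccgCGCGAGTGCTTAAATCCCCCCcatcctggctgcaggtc
Cftr, chr6:18170437-18170686, plus strand, YAP tumor 2 and H3K27ac tumor: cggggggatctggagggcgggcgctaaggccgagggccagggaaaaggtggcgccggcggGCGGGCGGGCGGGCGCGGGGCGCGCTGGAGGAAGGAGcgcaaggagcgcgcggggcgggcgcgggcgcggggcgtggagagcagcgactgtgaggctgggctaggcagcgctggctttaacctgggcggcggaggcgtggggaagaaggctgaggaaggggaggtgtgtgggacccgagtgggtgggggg
Olfm4, chr14:80000052-80000301, plus strand, YAP tumor 2: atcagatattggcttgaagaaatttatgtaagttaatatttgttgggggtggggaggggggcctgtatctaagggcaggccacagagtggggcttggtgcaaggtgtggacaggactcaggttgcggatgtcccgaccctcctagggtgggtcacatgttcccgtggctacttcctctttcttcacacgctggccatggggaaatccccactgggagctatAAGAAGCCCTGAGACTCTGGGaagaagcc
Aqp5, chr15:99590778-99591027, plus strand, no summit within these bases: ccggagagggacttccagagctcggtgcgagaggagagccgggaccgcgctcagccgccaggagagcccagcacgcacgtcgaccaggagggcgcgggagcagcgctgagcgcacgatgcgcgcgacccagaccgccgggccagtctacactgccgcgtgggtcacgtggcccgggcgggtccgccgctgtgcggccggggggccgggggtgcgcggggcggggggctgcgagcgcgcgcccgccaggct

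The GC content of these stretches ran from 54.0% at Olfm4 and 55.2% at Muc6 through 64.8% at Wfdc2 to 76.4% at Cftr and 78.4% at Aqp5. The Cftr and Aqp5 stretches are thus the richest in G and C of these 5. The table had a start for 7 of the 10 genes, with none for Tff2, Glipr1 and Dmbt1. The TEAD motif GGAATG, searched on both strands, was in 0 of the 7 stretches and in 12.6% of 32851 listed promoters of the same length. The AP-1 motif TGANTCA, which reads the same on both strands, was in 0 of 7 and in 6.75%. The motifs can overlap by the letters TG, and a missing match says only that these letters are not in these 250 bases.

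**Figure D3:**
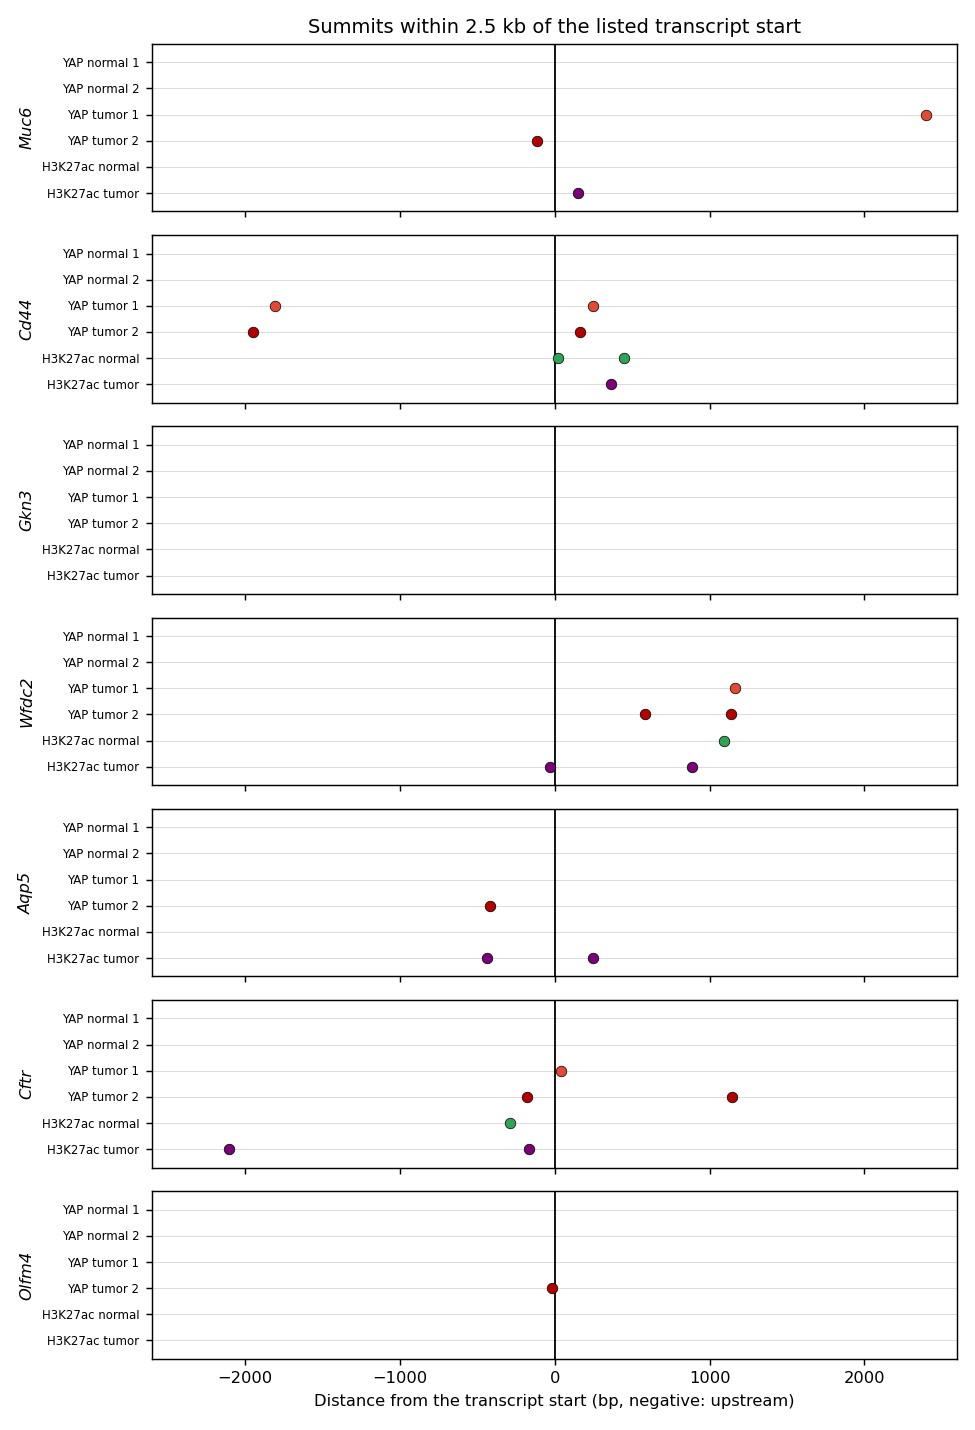
Summits of the 6 libraries around the listed transcript start of 7 marker genes, with distance from the start in bp on the x axis (negative is upstream) and 1 row per library. Cd44, Wfdc2 and Cftr have H3K27ac of both tissues near the start, Muc6 and Aqp5 have it in the tumor library alone, and Gkn3 and Olfm4 have none.

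Gkn3 encodes a gastrokine made by neck cells and lies beside Gkn1 and Gkn2, which are pit cell genes. It had 7 and 12 YAP summits in tumor 1 and tumor 2 and 0 in both normal libraries. Of its 6 sites of both tumor libraries, 1 had Gkn3 as the nearest gene, 10405 bp outside it at chromosome 6, position 87399340, ranked 27404 in tumor 1 and 24293 in tumor 2. The best-ranked site lay 1299 bp outside Gkn1, at ranks 11584 and 9028, and another 170 bp outside Gkn1. H3K27ac summits in the window numbered 4 in normal and 5 in tumor, and none lay inside Gkn3. The normal summits included 1 inside Gkn1 and 1 inside Gkn2. The nearest tumor summit was 15205 bp from the Gkn1 summit and 181 bp from the Gkn2 summit. The tumor H3K27ac library had 2 further summits 19165 and 21339 bp upstream of the transcript start of Gkn3, at ranks 15753 and 18749 of 66896. Gkn3 was the nearest gene to the first, and Bmp10, 18720 bp away, to the second. The nearest normal summits were 34030 and 36204 bp from them. Tumor 2 had a YAP summit 144 bp from the first of these 2, while the nearest of tumor 1 was 8737 bp away.

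Cd44 encodes the receptor for hyaluronan, whose variant isoforms mark SPEM cells. It had 6 and 8 YAP summits in tumor 1 and tumor 2 and 0 in both normal libraries, and all 5 sites of both tumor libraries had Cd44 as the nearest gene. One of them, at chromosome 2, position 102901459, lay 206 bp downstream of the transcript start and inside the gene, with rank 29044 in tumor 1 and 17919 in tumor 2. It was 155 bp from a tumor and 184 bp from a normal H3K27ac summit. Cd44 was the 1 marker gene with a YAP site of both tumor libraries and H3K27ac of both tissues within 1 kb of its listed start. Another site lay 1870 bp outside that end of the gene, ranked 16111 and 43917. The best-ranked site lay deep in the gene, 15130 bp from its 3′ end, ranked 13800 and 19687, and its nearest H3K27ac summit of either tissue was 74949 bp away. H3K27ac summits numbered 2 in normal and 2 in tumor, and 1 in tumor at equal list length.

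Cftr encodes the chloride and bicarbonate channel that is opened through cyclic AMP. It is the longest of the 10 genes (152084 bp) and had the fewest YAP summits for its length, 1 in tumor 1, 4 in tumor 2 and 0 in both normal libraries. The tumor 1 summit lay 43 bp inside the gene, ranked 28314, and the nearest tumor 2 summit lay 180 bp upstream of the start, ranked 28237. They fell just outside the 200 bp limit. With a limit of 500 bp they counted as 1 site, and all 10 genes had one. No share of all genes is given at 500 bp, and at 200 bp it was 79.2%. H3K27ac lay at the same start in both tissues, 286 bp upstream in normal (rank 18440 of 22574) and 164 bp upstream in tumor (rank 20293 of 66896). The tumor library had a second summit 2099 bp upstream, ranked 13192, with the nearest normal summit 1813 bp away.

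Aqp5 encodes a water channel of secretory cells. The normal H3K27ac library had 0 summits in its window and the tumor library 8, of which 2 had Aqp5 as the nearest gene. Over all genes, 2.07% combine 0 normal with at least 8 tumor summits. At equal list length the tumor library had 2, and 3.1% of all genes combine 0 with at least 2. Both cutoffs were taken from the counts of Aqp5 itself. At the 2-fold call, 1 of the 10 marker genes had an excess at equal list length, against 12.8% of all genes. The tumor summits at the start lay 438 bp upstream, ranked 12571 of 66896, and 249 bp inside the gene, ranked 34259, on both sides of the stretch printed above. A further one, ranked 15981, lay 7025 bp upstream, inside the kidney water channel gene Aqp2. The normal summit nearest to any of these 3 was 60108 bp away. YAP summits numbered 2 in tumor 1, 5 in tumor 2 and 0 in both normal libraries. The site of both tumor libraries inside Aqp2, at chromosome 15, position 99583870, lay 133 bp from the tumor H3K27ac summit there and ranked 18509 and 26616. It was the 1 site of the 36 with tumor and without normal H3K27ac within 1 kb. The other, 1726 bp beyond Aqp5 at 99596555, ranked 11122 and 16842 and its nearest H3K27ac summit was 5278 bp away. At the start itself tumor 2 had a summit 22 bp from that of H3K27ac, ranked 48374 of 53904, and the nearest of tumor 1 was 5967 bp away. With 1 H3K27ac library per tissue this difference has no replicate check.

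Wfdc2 encodes a small secreted protease-inhibitor-like protein and lies beside further genes of the Wfdc family. It had 4 and 9 YAP summits in tumor 1 and tumor 2 and 0 in both normal libraries. Both of its sites of both tumor libraries had Wfdc2 as the nearest gene, 3601 bp upstream of the start and 1151 bp inside the gene. The inner site, at chromosome 2, position 164563866, ranked 28763 and 23011 and lay 264 bp from a tumor and 59 bp from a normal H3K27ac summit. The tumor H3K27ac summit there, 887 bp inside the gene, ranked 13161 of 66896, and the normal one ranked 19947 of 22574. The tumor library had another summit 28 bp upstream of the start, ranked 41825. These ranks are places within separate lists and show no change in height.

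Dmbt1 encodes a secreted scavenger-receptor glycoprotein of mucosal defence. It had 5 and 9 YAP summits in tumor 1 and tumor 2 and 0 in both normal libraries. Its 4 sites of both tumor libraries were weakly placed: the best-ranked lay 37995 bp outside the gene, nearer to Htra1, at 20700 and 36023, and the 1 inside the gene ranked 35995 and 52120. None had H3K27ac within 1 kb. Dmbt1 was the 1 marker gene without any tumor H3K27ac summit in its window, and the normal library had 1, 44010 bp outside the gene and nearest to Cdcp3, 8764 bp away. Over all genes, 94.0% have a tumor and 75.0% a normal H3K27ac summit in the window.

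Olfm4 encodes an olfactomedin glycoprotein known from stem cells of the intestinal crypt. It had the fewest YAP summits, 1 in tumor 1, 2 in tumor 2 and 0 in both normal libraries. Its single site, at chromosome 14, position 79987098, lay 13204 bp upstream of the start and ranked 14103 and 31867. A normal H3K27ac summit lay 267 bp from it, ranked 22059 of 22574, and another of normal 15749 bp upstream of the start. The nearest tumor H3K27ac summit was 16768 bp from the site. Tumor 2 alone had a YAP summit 19 bp upstream of the start, ranked 52170, shown in capitals above.

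Glipr1 encodes a protein of the CAP superfamily, related to pathogenesis-related proteins. Its window held the best-ranked YAP site of all 36, at chromosome 10, position 111972702, with rank 1538 in tumor 1 and 737 in tumor 2. That site lay 7 bp inside Krr1, which serves ribosome assembly and overlaps Glipr1, and 12746 bp outside Glipr1. A listed transcript start was 7 bp from the site. The site was 243 bp from a tumor and 268 bp from a normal H3K27ac summit. The 1 site inside Glipr1, at 111996787, ranked 32983 and 26250 and its nearest H3K27ac summit was 23817 bp away. YAP summits numbered 3 and 9 in tumor 1 and tumor 2 and 0 in both normal libraries. No H3K27ac summit of either tissue lay inside Glipr1.

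The sites at the marker genes were placed lower in the score lists than tumor YAP sites in general. Their median rank stood at 60.7% of the tumor 1 list and 46.9% of the tumor 2 list, counted from the best score, against 42.0% and 30.3% over all 29492 sites of both tumor libraries. The site at Krr1 was the 1 of 36 in the best 10% of both lists (2.78%, Wilson 95% interval 0.492 to 14.2), and 10.3% of all sites were. No other site of the 36 was in the best 25% of both lists, which held 27.5% of all sites. These intervals cover counting error only, and sites of one window share a locus, so they are a description. The deposited score is the authors' −log10 value from the peak caller, of either p or q. It is comparable only within a list, so a cutoff on it need not be alike between libraries. At a score of at least 5 in both libraries, 8 of 10 genes kept a site, against 75.8% of all genes. At a score of at least 10, 4 of 10 genes had one, against 66.8%, and 4 of 10 had more summits in both tumor libraries, against 68.2%. The genes with such a site were Tff2, Gkn3, Aqp5 and Glipr1, with 5 sites, and the marker gene was nearest to 1 of them, that of Aqp5.

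**Figure D4:**
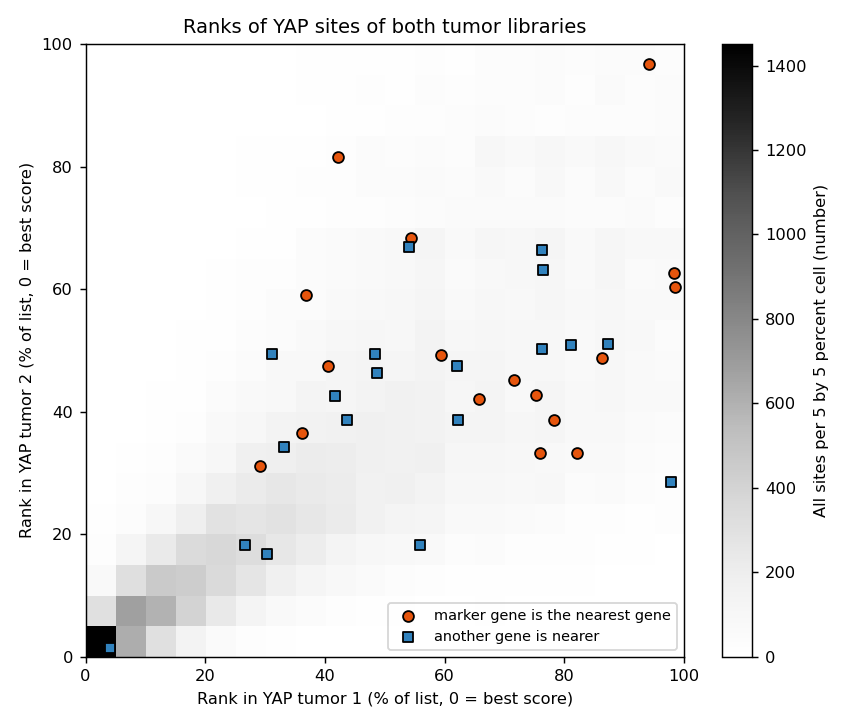
Rank of each YAP site of both tumor libraries in tumor 1 (x axis) and tumor 2 (y axis), as a percentage of the list with 0 the best score. Grey shows all 29492 sites in cells of 5 by 5 percent, circles the 17 sites for which a marker gene is nearest, and squares the 19 nearer to another gene; the square at the lower left is the site at Krr1.

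H3K27ac was found beside few of these sites. Of the 36, 6 had a tumor H3K27ac summit within 1 kb (16.7%, Wilson 95% interval 7.87 to 31.9), and of all sites 52% did. A normal summit was within 1 kb of 9 (25%, 13.8 to 41.1), against 47.4% of all sites. Both tissues had one at 5 sites, at Cd44, Wfdc2, Krr1, Tmprss3 and Antxr1, and 26 sites (72.2%, 56.0 to 84.2) had none, against 41.2%. Among the 17 sites with the marker gene nearest, 2 had tumor H3K27ac (11.8%, 3.29 to 34.3). The order was the same in each tumor library taken alone: 19.1% of 47 summits against 50.8% of all in tumor 1, and 19.8% of 81 against 42.0% in tumor 2. The share within 1 kb of a gene end was 19.4% at the marker genes (9.75 to 35.0) and 32.5% over all sites, so position moved with this difference, and its part was not tested. The lower ranks given above moved with it too, and their part was not tested.

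**Figure D5:**
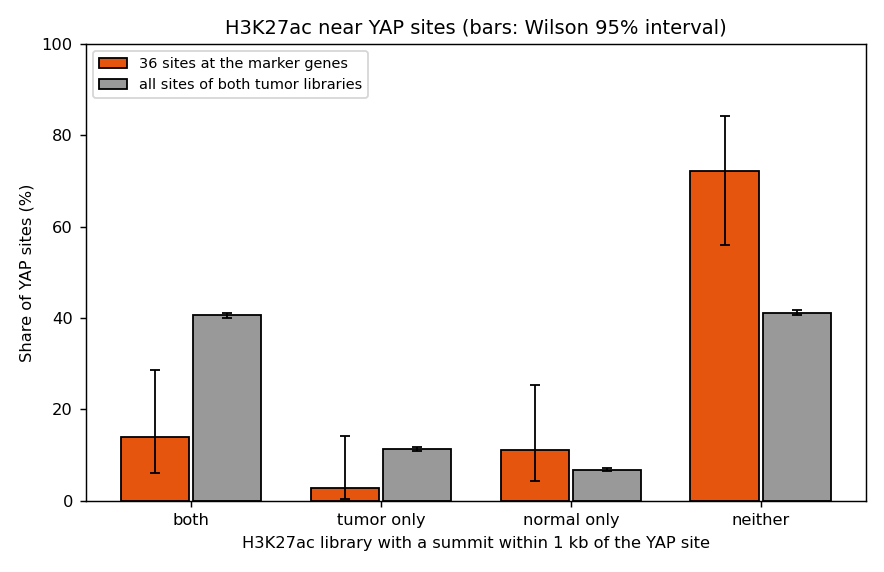
Share of YAP sites of both tumor libraries with an H3K27ac summit within 1 kb in both tissues, in tumor alone, in normal alone or in neither. Orange bars are the 36 sites at the marker genes and grey bars all 29492 sites, with Wilson 95% intervals; 72.2% of the marker sites and 41.2% of all sites had neither.

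Counted over windows, H3K27ac at the marker genes was not more frequent in tumor than elsewhere in the genome. In the full lists the 10 windows held 20 normal and 42 tumor summits, 8.86 and 6.28 per 10000 summits of each list. With the tumor list shortened to 22574 summits they held 12. Ratios were formed as tumor plus 1 over normal plus 1. At equal length Aqp5 alone reached a 2-fold excess (3.0), against 12.8% of all genes. The windows of Tff2 (0.400), Dmbt1 (0.500) and Olfm4 (0.333) reached a 2-fold deficit, against 7.91%. The 4 normal summits in the Tff2 window lay inside Tff1 or Tmprss3, and the 1 in the Dmbt1 window was nearest to Cdcp3. Those of Olfm4 ranked 21585 and 22059 of 22574, near the end of the list. When the marker gene had to be nearest, 1 gene had a deficit and 2 an excess, with no share of all genes given for that rule. The median ratio of the 10 was 0.667 and that of all genes 1.00. In the full lists 4 of 10, Aqp5 (9.0), Muc6 (3.33), Wfdc2 (2.00) and Cftr (2.00), reached the excess against 53.7% of all genes, and Dmbt1 (0.500) the deficit against 0.836%. The median was then 1.40 against 2.00. With both lists limited to scores of at least 10, 5 of 10 genes reached the excess, against 50.5% of all genes. Scores are comparable only within a list, so this cutoff need not be alike in both. Of the 20 normal summits 12 had a tumor summit within 1 kb (60.0%, Wilson 95% interval 38.7 to 78.1, against 79.8% of all), and of the 42 tumor summits 11 had a normal one (26.2%, 15.3 to 41.1, against 24.7%).

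Other genes linked to metaplasia or regeneration were counted from a list of 12. All 12 had a site of both tumor libraries, and 11 had more YAP summits in both tumor than in either normal library. Over all genes each of these held for 79.2%. The best-placed sites belonged to the windows of Vil1, the villin gene (ranks 1411 and 1199), Gpx2, a glutathione peroxidase gene (1606 and 1454), Clu (2477 and 3104) and Lcn2, the lipocalin-2 gene (2629 and 735). That of Clu was inside the gene, 81 bp from an end, and the others were 11960 to 41969 bp outside the named gene. At equal length 1 of 12 had a 2-fold H3K27ac excess and 4 a 2-fold deficit, against 12.8% and 7.91% of all genes. The median ratio was 0.85, against 1.0 over all genes. Chief cell genes had 7 of 8 with such a YAP site, 1 excess and 3 deficits (median 0.633), and pit cell genes 6 of 7, 0 and 4 (median 0.500). Sites of both tumor libraries per 100 kb had a median of 4.24 in the list of 12, 3.87 in chief and 6.65 in pit cell genes. The median was 2.02 in the 10 SPEM and neck-cell genes and 2.17 over all genes. The SPEM and neck-cell windows overlap the pit cell windows at Tff1, Gkn1 and Gkn2, so those summits are counted in both lists. No difference between these lists was tested.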

How the data were processed

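H3K27ac and YAP were profiled by chromatin immunoprecipitation with 50 bp paired reads, per the labels' protocols. Bowtie2, MACS2 and the build GRCm38 (mm10) are named, without versions, in the submitters' processing notes. The sources used here state neither thresholds nor control libraries. Each library has 1 list of 1 bp summits, called per sample. The score deposited by the authors is on a −log10 scale, of p or of q, and comparable only within a list. Depth is unknown and sets how many summits a caller returns, so H3K27ac was also compared at equal list length.

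Summits outside the autosomes and sex chromosomes were left out, and the rest were counted in windows of all protein-coding genes with Python 3.11.15, numpy 2.4.6, pandas 2.3.3, scipy 1.17.1 and matplotlib 3.10.9. The counting and matching were tested on simulated data. Neighbouring windows can share summits, and a summit's nearest gene was taken by distance to the gene body. No 2 replicates shared a summit of the same position and score. Transcript starts, strands and promoters came from RefSeq (GRCm38.p6).

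The members, gene lists and tests were chosen with earlier results of these data known. All members are named; other listed genes are counts, up to 4 of them named by rank of their best site, and neighbours are named where a described summit lies in or nearest to them. The alternatives covered window, assignment, score, list length, distances, left-out libraries and grouping. Values of some single listed genes are not reported here.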

Additional observations from a re-analysis of the deposited data

How the results depend on the processing

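Over 21 alternative settings, 50 of 79 recomputed values stayed near the reported ones (counts within 1.5-fold, shares and the ratio within their 95% interval). Among the 50 are the counts of genes with more YAP summits in tumor after libraries were left out or paired, which could not differ. With the gene body alone, 5 genes had a site of both tumor libraries (46.0% of all genes do), 5 had more YAP summits in tumor (45.5%), and there were 6 sites, 33.3% with tumor and 50.0% with normal H3K27ac and 0 genes with a 2-fold H3K27ac excess or deficit. Sites numbered 16 within 10 kb, 57 within 100 kb, 17 when the marker gene had to be nearest, 20 at a score of 5 and 22 when shared within 100 bp. At a score of 10 there were 5 sites at 4 genes, 40.0% of them with tumor H3K27ac, and 4 genes with more in tumor (68.2% of all genes). Deficits of H3K27ac fell to 1 gene within 10 kb and within 100 kb, and to 1 with nearest genes, where 2 had an excess. No share of all genes with an H3K27ac excess or deficit is given for these settings or for the gene body alone. These counts therefore cannot be set against the genome.

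The ratio of H3K27ac summits in the windows, tumor over normal, was 0.60 at equal list length and turned to 2.10 with the full lists and 4.00 at a score of at least 10. Excesses then numbered 4 and 5 genes (53.7% and 50.5% of all genes) and deficits 1 and 0, and the cause was not tested. For deficits the share of all genes was 0.836% with the full lists and is not given for the score cutoff. The ratio was 1.00 within 10 kb at equal length. Scores are comparable only within a list, so a cutoff on score need not be alike between libraries.

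Leaving out 1 tumor library gave 47 to 81 summits, with shares of 19.1 to 19.8% beside tumor and 18.5 to 27.7% beside normal H3K27ac. All 10 genes had such summits, against 82.4% of all genes for tumor 1 and 83.5% for tumor 2. Leaving out any 1 YAP library left 10 genes with more in tumor, which the call on all YAP libraries fixes in advance. With same-numbered libraries compared as a replicate block, 10 of 10 genes had more summits in tumor, which that call fixes too. No share of all genes is given for the block, and the call on all YAP libraries held for 79.2% of them. The numbers only name libraries. With YAP lists at the shortest length 1 gene had more in tumor (9.83% of all genes). By the words in the peak names 0 had (0.224%), a grouping in which the list lengths leave little room for a call. Leaving out both doubted libraries was added after the data were seen and left 10, as the call on all YAP libraries fixes in advance. Summit lists without reads set no limit on what low depth could miss.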
